A study of Homo sapiens with 6 samples.

Results

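The genes described here are the collagens, the laminins and a set of other extracellular matrix genes (fibrillins, fibulins, thrombospondins, nidogens, lysyl oxidases, and SPARC, TNC, VCAN, HSPG2, BGN, DCN, LUM, POSTN, ECM1, MGP and EFEMP1) in ovarian cancer cells depleted of PQBP1, a splicing factor of the spliceosome. They were chosen by gene symbol, without pseudogenes and antisense genes, which gave 84 genes of the 32679 in the table, and 83 of them are described, 43 collagens and 11 laminins among them. Poly(A) RNA of HEY, a human ovarian cancer cell line, was sequenced in 6 samples, 3 with a control hairpin (shNC) and 3 with a hairpin against PQBP1 (shPQBP1), all labelled day 3. The hairpins were carried by lentivirus in puromycin-selected stable lines, and whether a line is 1 clone was not stated. Treatment was given as none for shNC and as doxycycline at 1 microgram per ml for shPQBP1, so the hairpin and the drug differ together and their effects cannot be told apart. The study's methods place the hairpin in pGIPZ, a vector without a doxycycline switch, yet also mention knockdown cells induced by doxycycline. The times the methods give for RNA extraction include the labelled day 3, while the supplementary text gives a shorter induction of such lines. Treatment and time stand here as labelled. Nothing in the labels says that the samples of a group were separate cultures, so the p-values measure the spread between these samples.

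Collagens are secreted as trimers that build fibrils, networks and filaments, and each chain has its own gene. Laminins, made of one alpha, one beta and one gamma chain, form with type IV collagen, nidogen and perlecan the basement membrane on which epithelia rest. Carcinoma cells secrete part of the matrix they meet, whereas the interstitial collagens of a tumour come largely from fibroblasts.

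PQBP1 itself was read at 7.18, 6.67 and 6.93 FPKM in shNC and at 1.68, 1.72 and 1.44 in shPQBP1, a change of −2.04 ± 0.10 on the log2 scale (SE, limma, adjusted p = 0.00154). Fold changes here are shPQBP1 minus shNC on log2(FPKM + 0.1), FPKM being fragments per kilobase of transcript scaled to sequencing depth, and a gene was tested where its mean over the 6 samples was at least 1 FPKM. Keratins KRT7, KRT8 and KRT18 (52.8 to 94.6 FPKM) were expressed, and so were MSLN, which rose from 13.5 ± 1.32 to 23.8 ± 1.52 FPKM (SD, n = 3, limma, adjusted p = 0.0187), and PAX8, at 12.3 to 15.7 FPKM in shNC and 18.4 to 24.1 in shPQBP1 (adjusted p = 0.102). KRT19 lay at 1.19 to 1.65 FPKM in shNC and 1.70 to 2.10 in shPQBP1 (limma, adjusted p = 0.218). WT1 was lower in every shPQBP1 sample, at 0.63 to 0.71 FPKM in shNC and 0.31 to 0.45 in shPQBP1, under the minimum. EPCAM lay at 0.79 to 1.13 FPKM and overlapped. CDH1 stayed at or under 0.06 FPKM and MUC16 at or under 0.01, and the mesenchymal VIM was high at 1112 to 1343 FPKM. The 5 fibroblast markers summed to 7.73 to 8.84 FPKM in shNC and to 9.33 to 10.9 in shPQBP1, mostly ACTA2. Of them FAP lay at 0.29 to 0.65 FPKM in shNC and 1.28 to 1.39 in shPQBP1, and PDGFRA, PDGFRB and THY1 at or under 0.13 in every sample. The endothelial CDH5 lay at 2.11 to 2.96 FPKM in shNC and 3.10 to 3.64 in shPQBP1 (limma, adjusted p = 0.151). PECAM1, also endothelial, lay at 0.23 to 0.25 and 0.02 to 0.06. The leukocyte marker CD68 overlapped, at 9.12 to 15.6 and 12.1 to 21.2 FPKM, and PTPRC was listed at 0 throughout. Read depth is unknown, since the values keep no whole-read steps, and correlations between samples ranged from 0.926 to 0.969, the lowest with shNC 1. In bulk RNA, fewer cells of a type and less RNA per cell cannot be told apart.

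Of the 83 matrix genes, 29 passed the minimum and 54 did not: 23 had a mean between 0.1 and 1 FPKM, 26 were lower still, and COL20A1, COL22A1, FBN3, LAMC3 and POSTN were listed at 0 in all samples. Laminins summed to a higher level than collagens. LAMB3 and LAMC1 together with SPARC were the genes with the highest levels, and 13 genes had a mean over 10 FPKM. Summed over the 83 genes the level was 518 ± 2.51 FPKM in shNC and 547 ± 13.7 in shPQBP1 (SD, n = 3), which was 0.169% and 0.193% of all FPKM in the table. The laminin sum was 223 ± 4.15 FPKM in shNC and 259 ± 12.3 in shPQBP1, and the collagen sum was 87.9 ± 1.84 and 73.6 ± 0.583 FPKM. These sums are descriptions and were not tested.

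**Figure D1:**
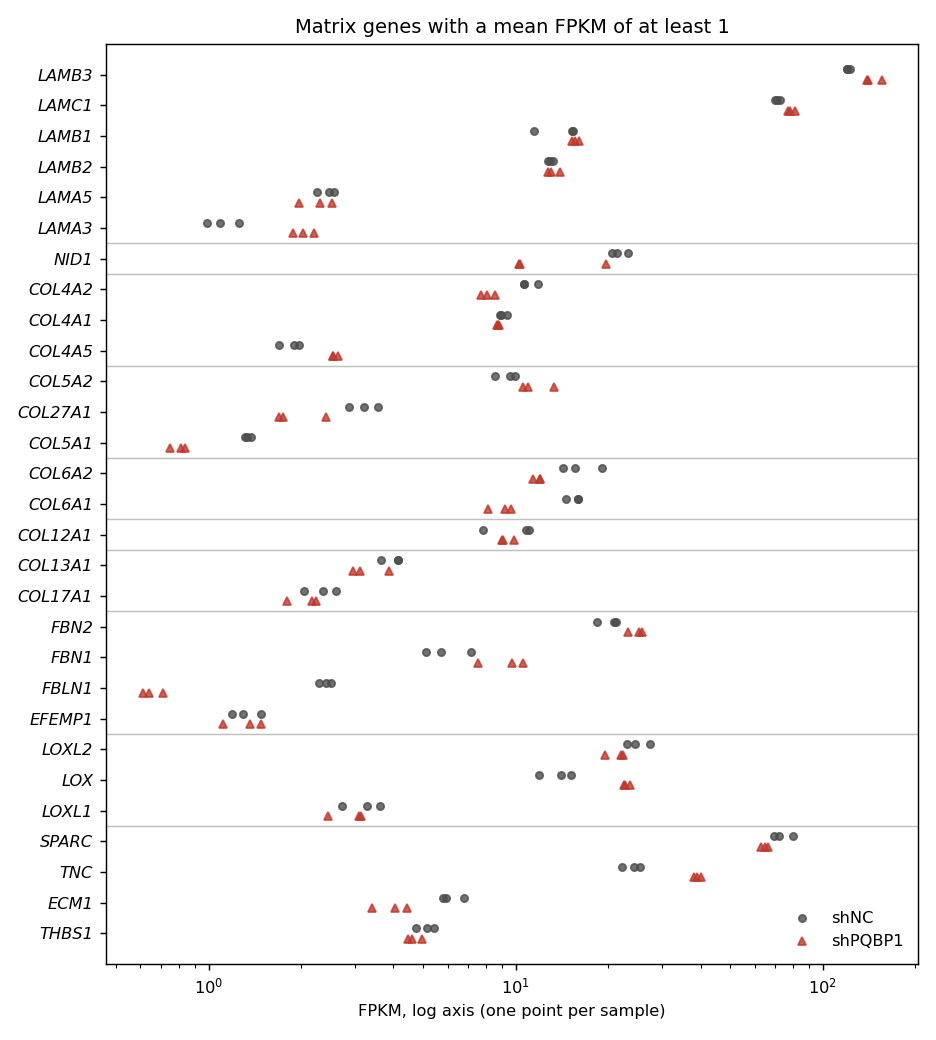
FPKM on a log axis of the 29 matrix genes tested, 1 point per sample (grey circles, shNC; red triangles, shPQBP1), with lines between groups of genes by role from laminins at the top to matricellular genes at the bottom. TNC lies at 22.1 to 25.4 in shNC and 38.0 to 40.2 in shPQBP1, and FBLN1 at 2.28 to 2.51 and 0.61 to 0.71.

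Upon PQBP1 knockdown 5 of the 29 tested genes passed an adjusted p of 0.05, with TNC, LOX and LAMA3 higher and COL6A1 and FBLN1 lower. Over all 11413 genes tested 2.91% passed, 1.73% as higher and 1.18% as lower. At an unadjusted p of 0.05, 17 of the 29 passed, 9 higher and 8 lower, beside 23.6% of all genes, 11.9% higher and 11.7% lower. In 20 of the 29 the groups did not overlap, 9 higher and 11 lower in shPQBP1, beside 34.4% of all genes, 17.3% higher and 17.1% lower. FBLN1 was the 1 gene of the 29 that also changed by more than 2-fold, as 1.52% of all genes did at an unadjusted p of 0.05. The median log2 fold change of the 29 genes was −0.10, against 0.02 for all genes, so the genes moved in both directions around a centre near 0. Counts over the 29 are descriptions of the genes with enough signal and leave out the 54 others. The minimum is set on the mean of all samples, so a gene could meet it through 1 group alone, as FBLN1 and COL5A1 did through shNC.

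**Figure D2:**
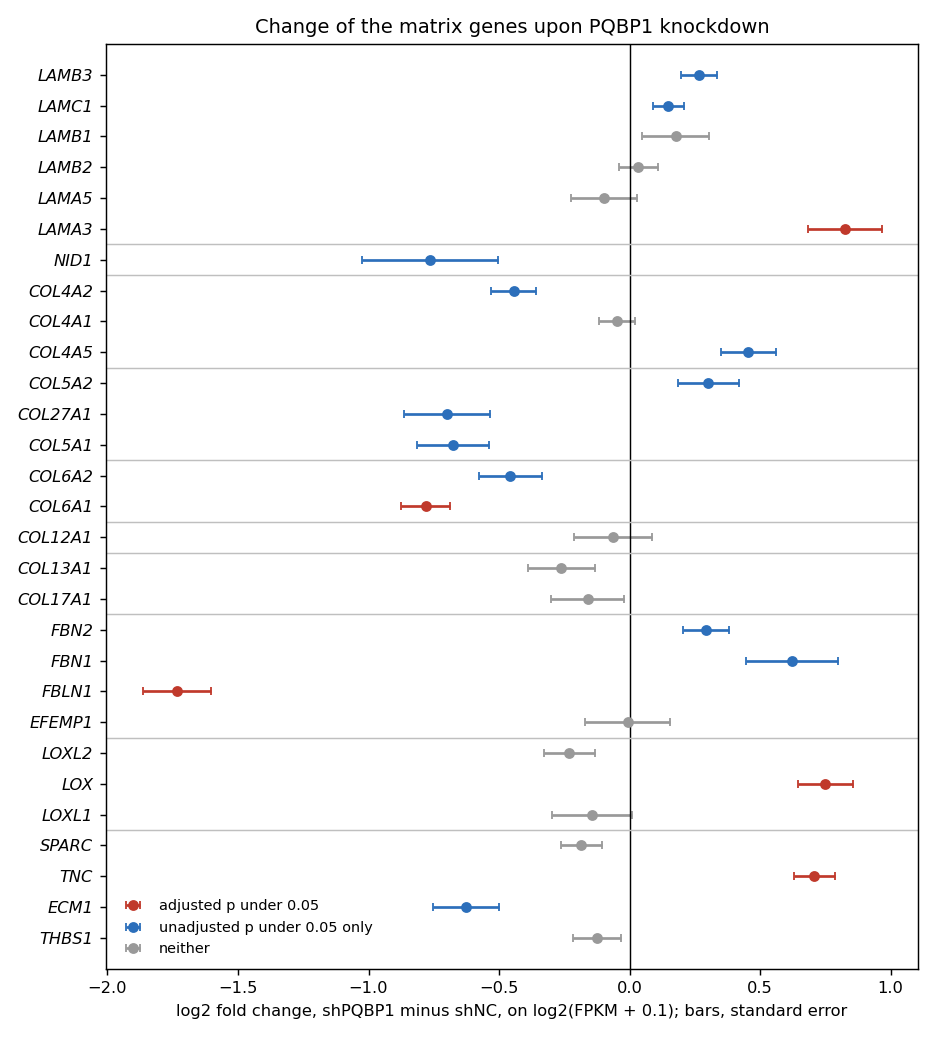
Log2 fold change (shPQBP1 minus shNC, on log2(FPKM + 0.1)) of the 29 matrix genes, with bars for the standard error and lines between groups by role. Red marks the 5 genes at an adjusted p under 0.05, blue those at an unadjusted p under 0.05 only, and grey the 12 at neither. LAMA3 is the highest at 0.82 and FBLN1 the lowest at −1.73.

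Among the laminins, LAMA3 and LAMB3, chains of the epithelial laminin that anchors cells to the basement membrane through hemidesmosomes, lay higher in every shPQBP1 sample than in any shNC sample. LAMA3, the alpha chain (ENSG00000053747, chr18:23689453-23956222), was read at 0.99, 1.26 and 1.09 FPKM in shNC and at 1.89, 2.21 and 2.03 in shPQBP1. It rose by 0.82 ± 0.14 on the log2 scale (SE, limma, adjusted p = 0.0384), at a level far below that of its partner LAMB3. LAMB3, the beta chain, was read at 119.7, 122 and 120.0 FPKM in shNC and at 140.2, 155 and 139.8 in shPQBP1. The groups did not overlap, but the difference of 0.27 ± 0.07 did not pass (limma, adjusted p = 0.0964).

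The RefSeq start regions of LAMA3 and LAMB3 are shown because both genes belong to this trimer and both hold the recognition motif of AP-1, the transcription factor of the JUN and FOS families. Each run is the 250 bases before a start, 5′ to 3′ on the gene's strand, with matches to TGACTCA on either strand in capitals. They are a LAMA3 start inside the gene (GRCh38.p14, chr18:23872770-23873019, plus strand), the outermost LAMB3 start (chr1:209652426-209652675, minus strand) and a LAMB3 start within the gene (chr1:209651375-209651624, minus strand).
LAMA3: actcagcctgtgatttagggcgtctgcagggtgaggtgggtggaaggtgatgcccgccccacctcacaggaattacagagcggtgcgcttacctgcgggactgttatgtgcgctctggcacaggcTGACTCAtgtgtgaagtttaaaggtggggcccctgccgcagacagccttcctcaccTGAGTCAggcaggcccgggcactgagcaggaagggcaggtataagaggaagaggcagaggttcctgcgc
LAMB3 outermost start: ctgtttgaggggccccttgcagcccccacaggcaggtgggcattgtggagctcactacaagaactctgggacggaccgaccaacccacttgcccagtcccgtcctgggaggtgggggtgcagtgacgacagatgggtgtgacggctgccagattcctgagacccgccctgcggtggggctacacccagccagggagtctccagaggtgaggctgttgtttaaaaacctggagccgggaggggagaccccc
LAMB3 inner start: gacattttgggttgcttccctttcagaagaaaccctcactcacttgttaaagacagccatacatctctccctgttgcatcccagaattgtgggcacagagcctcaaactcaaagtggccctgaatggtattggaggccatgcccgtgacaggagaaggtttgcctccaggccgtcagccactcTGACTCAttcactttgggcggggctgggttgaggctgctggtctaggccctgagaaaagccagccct
In the LAMA3 run the matches lie 125 to 119 and 69 to 63 bases before the start, and in the inner LAMB3 run 67 to 61 bases before it. The outermost LAMB3 run holds no match, nor does the remaining LAMB3 start (chr1:209652330-209652579), which is not printed, so 1 of the 3 LAMB3 starts holds the motif. Of all 35116 RefSeq start regions of this length 4.2% hold it, and of 27305 genes 5.19% in at least 1 start region. Of the 29 tested matrix genes 25 were found in the table and 3 held it in at least 1 start region, LAMA3, LAMB3 and ECM1. Of these 3, ECM1 lay lower in every shPQBP1 sample, and TNC and LOX, which rose, held no match. A match describes the letters and does not show that a factor bound there. Its relation to the direction of change was not tested.

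The chains of the more widely used laminins differed by smaller amounts. LAMC1, the common gamma chain, was read at 70.8, 72.4 and 69.97 FPKM in shNC and at 77.2, 81.1 and 78.2 in shPQBP1 (0.15 ± 0.06, limma, adjusted p = 0.207). LAMB1 lay at 11.4 to 15.3 FPKM in shNC and 15.3 to 16.1 in shPQBP1, LAMB2 at 12.7 to 13.2 and 12.8 to 14.0. LAMA5, the alpha chain of the laminin most common in adult epithelia, lay at 2.26 to 2.56 and 1.97 to 2.53 FPKM. In LAMB1, LAMB2 and LAMA5 the groups overlapped and none passed (limma, adjusted p = 0.42, 0.793 and 0.646). In all, 3 of the 6 laminins tested passed at an unadjusted p of 0.05, all 3 higher, beside 23.6% of all genes and 11.9% as higher, and 1 passed after adjustment, LAMA3, beside 2.91%. LAMA5 exons share 244 bases with ADRM1 on the opposite strand, at 44.9 to 63.6 FPKM, and those of LAMB1 300 bases with DLD, at 7.07 to 12.6. LAMA1 and LAMA2 stayed at or under 0.21 FPKM in every sample, and LAMB4 at or under 0.02.

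How the chains differed relative to one another can be read within each sample as a ratio of FPKM values. LAMA3 over LAMB3 was 0.00827, 0.0103 and 0.00908 in shNC and 0.0135, 0.0142 and 0.0145 in shPQBP1. All 3 shPQBP1 ratios lay above all 3 shNC ratios (p = 0.1, exact permutation, two-sided, and no lower p is possible with 3 samples a group). LAMB3 over LAMB1, at 8.78 ± 1.46 and 9.25 ± 0.352 (SD, n = 3), overlapped (exact permutation p = 0.6). Of the 5 chain ratios computed, with the collagen ratios given further on, none could pass a threshold of 0.05 in this design.

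**Figure D3:**
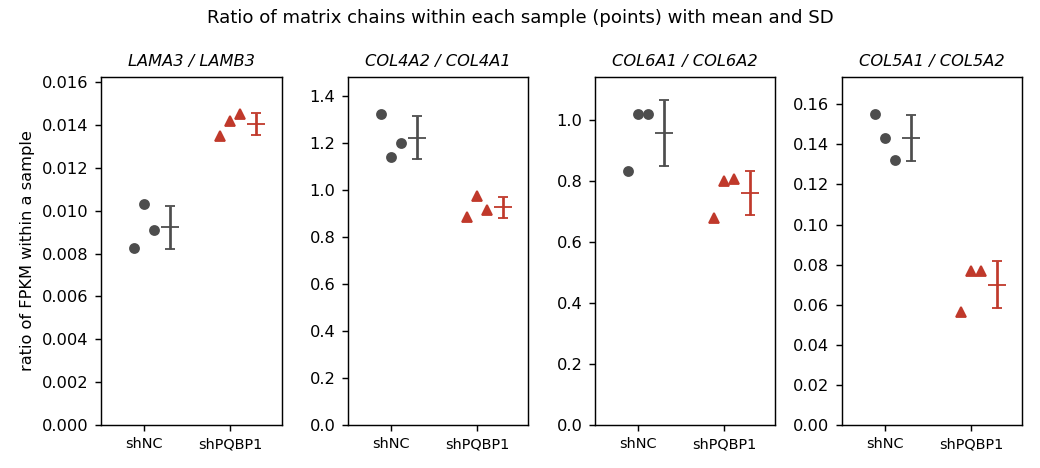
Ratio of FPKM between chains in each sample (points; grey circles, shNC; red triangles, shPQBP1), with mean and SD beside them and the vertical axes starting at 0. LAMA3 over LAMB3 lies higher in all 3 shPQBP1 samples, and COL4A2 over COL4A1, COL6A1 over COL6A2 and COL5A1 over COL5A2 lie lower in all 3.

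Nidogens and perlecan link laminin to type IV collagen. NID1 was read at 20.6, 23.3 and 21.4 FPKM in shNC and at 19.7, 10.2 and 10.3 in shPQBP1. The groups did not overlap, but shPQBP1 1 lay close to the control samples and the other samples near 10, and the difference of −0.76 ± 0.26 did not pass (limma, adjusted p = 0.156). Without shPQBP1 1 it was −1.08 (limma, adjusted p = 0.0304), and this was the only 1 of the 6 fits leaving a sample out that passed. In the others it was −0.80 to −0.61 (limma, adjusted p 0.204 to 0.366). HSPG2, which encodes perlecan, was read at 0.83, 0.80 and 0.78 FPKM in shNC and at 0.47, 0.55 and 0.60 in shPQBP1, under the minimum for the test. NID2, named here after its values were seen, was read at 0.08, 0.13 and 0.09 FPKM and at 0.36, 0.41 and 0.40, the reverse direction to NID1. Exons of NID2 share 1909 bases with RTRAF on the opposite strand, a gene at 12.2 to 13.4 FPKM. The strand setting of the counting is not given in the sources used here, so reads within the shared bases cannot be told apart.

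Type IV collagen, the network collagen of basement membranes, gave differences of different size and sign between its genes. COL4A1 and COL4A2, whose chains assemble 2 to 1 into the ordinary trimer, are transcribed in opposite directions from RefSeq start sites with 126 bases between them on chromosome 13, and in the GENCODE positions the genes overlap there. COL4A2 was read at 11.8, 10.7 and 10.7 FPKM in shNC and at 7.69, 8.55 and 8.07 in shPQBP1 (−0.44 ± 0.09, limma, adjusted p = 0.0537). COL4A1 was read at 8.98, 9.37 and 8.88 FPKM and at 8.69, 8.79 and 8.82 (−0.05 ± 0.07, adjusted p = 0.678). COL4A2 thus lay just above the threshold, and in both genes the shPQBP1 samples lay below all shNC samples, for COL4A1 by a narrow margin. COL4A2 over COL4A1 was 1.32, 1.14 and 1.2 in shNC and 0.885, 0.973 and 0.915 in shPQBP1 (exact permutation p = 0.1). With median-of-ratios scaling or quantile normalization the adjusted p of COL4A2 was 0.0485 and 0.049 (limma). COL4A2 passed in 3 of 15 alternative fits, and in none of the 6 that left a sample out (limma, adjusted p 0.054 to 0.195).

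The bases between both starts are shown because the pair shares them and yet differed in how far it moved (GRCh38.p14, chr13:110307158-110307283, plus strand, so COL4A2 is read off to the right and COL4A1 to the left), with the CCAAT box in capitals.
COL4A1 to COL4A2: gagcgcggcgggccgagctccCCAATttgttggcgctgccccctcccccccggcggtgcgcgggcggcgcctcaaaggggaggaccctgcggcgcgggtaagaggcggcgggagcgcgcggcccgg
This stretch has a GC content of 80.2% and holds 1 CCAAT box and 1 GC box (GGGCGG, either strand). Of all RefSeq start regions 32.0% hold CCAAT and 42.6% GGGCGG within 250 bases, and of all genes 37.0% and 46.2% in at least 1 start region. Of the 25 matrix genes matched 9 hold the first and 19 the second, counted in the same way. These shares and counts come from runs of 250 bases, longer than the 126 bases shown, so they are no like comparison for this stretch.

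The rarer type IV chains, found in kidney and other specialised membranes, lay higher in shPQBP1 instead, none passing after adjustment. COL4A5 was read at 1.69, 1.97 and 1.9 FPKM in shNC and at 2.63, 2.54 and 2.55 in shPQBP1 (0.46 ± 0.11, limma, adjusted p = 0.076). COL4A4, at 0.23 to 0.40 and 0.47 to 0.51 FPKM, and COL4A6, at 0.09 to 0.17 and 0.22 to 0.27, were higher in every shPQBP1 sample, under the minimum for the test. COL4A5 and COL4A6 are head to head on chromosome X, with 340 bases between them. COL4A3 stayed at or under 0.05 FPKM.

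Type VI collagen forms beaded microfilaments at the cell surface, and both of its tested genes lay lower in every shPQBP1 sample. Of the 2, 1 passed after adjustment. COL6A1 (ENSG00000142156, chr21:45981770-46005050) was read at 15.9, 14.6 and 16.0 FPKM in shNC and at 8.11, 9.64 and 9.21 in shPQBP1, and fell by 0.78 ± 0.10 on the log2 scale (limma, adjusted p = 0.0187). COL6A2 was read at 19.1, 14.3 and 15.7 FPKM and at 11.96, 12.04 and 11.4, a difference of −0.46 ± 0.12 that did not pass (limma, adjusted p = 0.102). The pair lies side by side on chromosome 21, 93061 bases apart, and COL6A1 over COL6A2 was 0.958 ± 0.109 in shNC and 0.762 ± 0.0727 in shPQBP1 (exact permutation p = 0.1). COL6A3, the third chain of the usual trimer, was read at only 0.06 to 0.08 FPKM in every sample, so transcripts of 2 of the 3 chains were present above 1 FPKM. COL6A6 did not pass 0.05 FPKM, nor COL6A5 0.01.

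Among the fibrillar collagens, both chains of type V were tested and their differences had opposite signs. COL5A1 was read at 1.33, 1.37 and 1.31 FPKM in shNC and at 0.75, 0.81 and 0.84 in shPQBP1 (−0.68 ± 0.14, limma, adjusted p = 0.0593). Its mean met the minimum of the test only through the shNC samples. COL5A2 was read at 8.59, 9.55 and 9.94 FPKM and at 13.3, 10.5 and 10.96 (0.30 ± 0.12, adjusted p = 0.193). Neither gene overlapped between groups or passed after adjustment, and COL5A1 over COL5A2 was 0.143 ± 0.0115 in shNC and 0.0699 ± 0.0118 in shPQBP1 (exact permutation p = 0.1). COL27A1, a fibrillar collagen of cartilage, was read at 2.86, 3.21 and 3.55 FPKM in shNC and at 1.75, 2.41 and 1.70 in shPQBP1 (−0.70 ± 0.17, limma, adjusted p = 0.0818). The chains of type I collagen were near absent, COL1A1 at 0.30, 0.36 and 0.47 FPKM in shNC and 0.19, 0.22 and 0.26 in shPQBP1, and COL1A2 at or under 0.07 in all samples.

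Of the other tested collagens, COL12A1, which decorates fibrils, lay at 7.80 to 11.04 FPKM in shNC and 9.01 to 9.89 in shPQBP1. The transmembrane COL13A1 and COL17A1, the latter a part of the hemidesmosome, lay at 3.65 to 4.14 against 2.96 to 3.87 and at 2.04 to 2.59 against 1.80 to 2.24 FPKM. These 3 overlapped between groups and did not pass (limma, adjusted p = 0.801, 0.269 and 0.497). Over all collagens 7 of the 11 tested passed at an unadjusted p of 0.05, 2 higher and 5 lower, beside 23.6% of all genes, 11.9% higher and 11.7% lower, and 1 passed after adjustment, COL6A1, beside 2.91%. The collagens had a median change of −0.26 on the log2 scale and the 6 laminins had a median of 0.16.

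The gene of the elastic fibre group that changed most was FBLN1, fibulin 1, a glycoprotein that binds fibronectin, laminin and elastic fibres. FBLN1 (ENSG00000077942, chr22:45502238-45601135) was read at 2.42, 2.51 and 2.28 FPKM in shNC and at 0.71, 0.64 and 0.61 in shPQBP1. Its level in shPQBP1 was 0.272 times that in shNC, and it fell by 1.73 ± 0.13 on the log2 scale (limma, adjusted p = 0.00479). All its shPQBP1 values lay under 1 FPKM, so its mean met the minimum of the test only through the shNC samples. In a fit of every gene above 0 in at least 1 sample its adjusted p was 0.0136 (limma). The 250 bases before its RefSeq start are shown as those of the gene that fell furthest (GRCh38.p14, chr22:45502633-45502882, plus strand, GC content 77.6%), and they hold no AP-1 motif, so no letter is in capitals.
FBLN1: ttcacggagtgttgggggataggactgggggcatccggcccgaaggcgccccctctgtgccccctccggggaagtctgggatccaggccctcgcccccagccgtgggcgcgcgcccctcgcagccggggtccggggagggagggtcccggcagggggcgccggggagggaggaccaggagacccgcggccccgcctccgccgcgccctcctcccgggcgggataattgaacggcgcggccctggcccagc
The fibrillins, which make up the microfibrils of elastic fibres, lay higher instead. FBN1 was read at 5.12, 5.70 and 7.14 FPKM in shNC and at 7.53, 9.73 and 10.6 in shPQBP1 (0.62 ± 0.18, limma, adjusted p = 0.115). FBN2 was read at 18.4, 21.0 and 21.2 FPKM and at 23.3, 25.1 and 25.7 (0.29 ± 0.09, adjusted p = 0.131). Neither overlapped between groups, and neither passed after adjustment. EFEMP1, a fibulin relative, lay at 1.19 to 1.48 and 1.11 to 1.48 FPKM (−0.01 ± 0.16, limma, adjusted p = 0.98).

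Lysyl oxidases oxidise lysines of collagen and elastin and so start their cross-links. LOX (ENSG00000113083, chr5:122063195-122078413) was read at 11.9, 15.2 and 14.0 FPKM in shNC and at 22.6, 22.8 and 23.5 in shPQBP1, and rose by 0.75 ± 0.11 on the log2 scale (limma, adjusted p = 0.0246). Its exons share 138 bases with SRFBP1 on the opposite strand, which lay at 4.47 to 10.2 FPKM. LOXL2 was read at 27.4, 24.5 and 23.1 FPKM in shNC and at 19.5, 22.3 and 22.1 in shPQBP1, without overlap but not passing (−0.23, limma, adjusted p = 0.219). LOXL1 overlapped, at 2.72 to 3.61 and 2.44 to 3.14 FPKM (limma, adjusted p = 0.57). LOX was thus the 1 of the 3 tested family members that passed, and LOXL4, named after its values were seen, was read at 0.47, 0.48 and 0.60 FPKM in shNC and at 0.82, 0.76 and 0.85 in shPQBP1, under the minimum.

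Matricellular proteins sit in the matrix and signal to cells more than they bear load. TNC, tenascin C (ENSG00000041982, chr9:115019575-115118207), was read at 25.4, 24.3 and 22.1 FPKM in shNC and at 38.0, 40.2 and 39.0 in shPQBP1, and rose by 0.71 ± 0.08 on the log2 scale (limma, adjusted p = 0.0154). ECM1 was read at 6.77, 5.94 and 5.78 FPKM and at 3.41, 4.06 and 4.43 (−0.63 ± 0.13, adjusted p = 0.0568). SPARC, a collagen-binding glycoprotein, was read at 80.1, 69.5 and 71.9 FPKM in shNC and at 63.0, 65.0 and 66.6 in shPQBP1 (limma, adjusted p = 0.218). The shPQBP1 samples of ECM1 and SPARC lay below all shNC samples, and neither passed after adjustment. THBS1 lay at 4.75 to 5.42 and 4.47 to 4.96 FPKM, overlapping (limma, adjusted p = 0.422).

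Below the minimum of the test, genes were described by their values and by a fit of every gene above 0 in at least 1 sample, in which 78 of the 83 matrix genes entered, 6 passed an adjusted p of 0.05 and 0.619% of all 30717 genes did. The 6 were TNC, LOX, COL6A1 and FBLN1, already given, and LAMA4 and COL10A1. LAMA4, the alpha chain of laminins of vessel walls and mesenchyme, was read at 0.23, 0.35 and 0.38 FPKM in shNC and at 1.21, 1.33 and 1.36 in shPQBP1, a mean 4.06 times higher (adjusted p = 0.0384 in that fit). COL10A1, the short chain collagen of growing cartilage, was listed at 0, 0.05 and 0.02 FPKM in shNC and at 0.39, 0.58 and 0.55 in shPQBP1 (adjusted p = 0.0362). Both lay at low levels in every sample but without overlap between the groups. LAMA3, tested in the wide fit too, had an adjusted p of 0.0823 there.

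Other low genes lay apart between groups without passing. VCAN, the large proteoglycan versican, was read at 0.59, 0.69 and 0.70 FPKM in shNC and at 0.82, 1.47 and 1.17 in shPQBP1, and COL8A1 at 0.24, 0.24 and 0.28 and at 0.72, 0.51 and 0.43 (adjusted p = 0.282 and 0.214 in the wide fit by limma). COL7A1, the anchoring fibril collagen that binds the epithelial laminin, was read at 0.66, 0.80 and 0.74 FPKM in shNC and at 0.42, 0.43 and 0.31 in shPQBP1 (adjusted p = 0.193). COL18A1 was read at 0.48, 0.35 and 0.36 FPKM in shNC and at 0.14, 0.27 and 0.20 in shPQBP1 (adjusted p = 0.31), and shares 1563 exonic bases with SLC19A1 on the opposite strand, at 0.98 to 1.63 FPKM. COL11A2 was also lower in each shPQBP1 sample, at 0.19 to 0.21 and 0.02 to 0.12 FPKM.

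**Figure D4:**
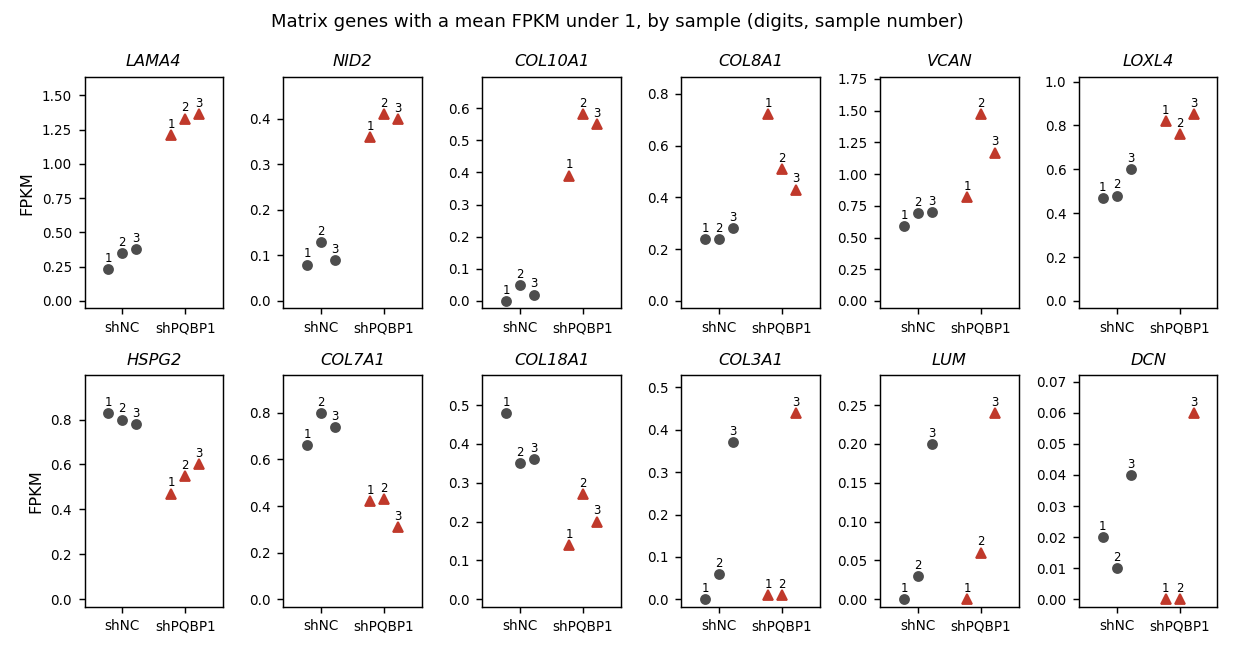
FPKM of 12 matrix genes with a mean under 1, in 1 panel each, with 1 point per sample (grey circles, shNC; red triangles, shPQBP1) and the sample number beside it; each vertical axis has its own range. LAMA4, NID2 and COL10A1 lie higher in all 3 shPQBP1 samples, while COL3A1, LUM and DCN are highest in the sample numbered 3 of both groups.

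Some low genes were highest in the sample numbered 3 of both groups. COL3A1 was listed at 0, 0.06 and 0.37 FPKM in shNC and at 0.01, 0.01 and 0.44 in shPQBP1, so that sample stood apart in each group. LUM was listed at 0, 0.03 and 0.20 and at 0, 0.06 and 0.24, and DCN at 0.02, 0.01 and 0.04 and at 0, 0 and 0.06 FPKM. COL1A2 and MGP, at or under 0.07 FPKM, and COL1A1, given above, were highest in the same samples, and COL1A1 was also lower in every shPQBP1 sample. The genes were put together after their values were seen. Of the 5 fibroblast markers, FAP was read at 0.29, 0.65 and 0.62 FPKM in shNC and at 1.39, 1.28 and 1.38 in shPQBP1, and PDGFRB at 0.12, 0.13 and 0.09 and at 0.02, 0.03 and 0.01. FAP was thus higher and PDGFRB lower in every shPQBP1 sample. THY1 was listed at 0, 0 and 0.02 FPKM and at 0.01, 0.03 and 0.02, PDGFRA at 0.02 to 0.03 and 0.02 to 0.05, and ACTA2 at 6.98 to 8.41 and 7.86 to 9.53, all 3 overlapping. The part of other cell types in these values was not tested. Over all 83 genes 12 were highest in the sample numbered 3 of both groups, 10 in that numbered 2 and 3 in that numbered 1. Beside the genes named above, the 12 included FBN1, FBN2, LAMA4, LOXL4, COL4A3 and COL4A4.

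Of 31 genes for hydroxylation, folding, export and cleavage of procollagen 23 were tested, none passed an adjusted p of 0.05 in limma and 6 passed unadjusted, 3 higher and 3 lower. That was 26.1% of the list, near the 23.6% of all genes, and in 12 of the 23 the groups did not overlap, beside 34.4% of all genes. The median log2 fold change was −0.11. The lysyl hydroxylase PLOD2 was read at 29.5, 56.0 and 48.3 FPKM in shNC and at 72.3, 60.4 and 69.3 in shPQBP1 (0.64 ± 0.24, limma, adjusted p = 0.182). FKBP10 and FKBP14 also lay higher, and the prolyl hydroxylase subunit P4HA1, P3H4 and the procollagen C-proteinase BMP1 lower (log2 fold changes of 0.30, 0.34, −0.32, −0.42 and −0.34). PPIB and P4HB, the highest of the list beside PLOD2, did not pass (limma, adjusted p = 0.735 and 0.23). Once GC content and transcript length were corrected for, 3 of the list passed, beside 8.24% of all genes.

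Receptors for matrix proteins were read from a list of 20 genes, of which 18 were found in the table and 10 tested. In limma none passed an adjusted p of 0.05, and 4 of the 10 passed unadjusted (23.6% of all genes), 3 higher and 1 lower, with a median log2 fold change of 0.23. ITGA6, the laminin-binding integrin alpha chain, was read at 68.0, 80.1 and 77.1 FPKM in shNC and at 114.9, 97.9 and 111.7 in shPQBP1 (0.53 ± 0.10, limma, adjusted p = 0.051). ITGA2, a collagen-binding chain, was read at 2.65, 4.59 and 5.54 FPKM and at 6.49, 11.3 and 13.4 (1.26 ± 0.36, adjusted p = 0.116), and SDC4 lay higher and BCAM lower (0.34 and −0.26). ITGB4, the partner of ITGA6 in hemidesmosomes, stayed at or under 0.07 FPKM in every sample. ITGB1, the common beta chain, was the most abundant receptor at 103 to 207 FPKM in shNC and 219 to 268 in shPQBP1 (limma, adjusted p = 0.229). With GC content and length removed 2 of the 10 passed, beside 8.24% of all genes.

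A property that moved with the direction of change was the base composition of the transcripts. Across the 29 tested matrix genes the log2 fold change and the GC content of the transcript had a Spearman correlation of −0.53, and across 11385 genes −0.46, given as descriptions over genes that share the same 6 libraries. The 9 matrix genes higher at an unadjusted p of 0.05 had a median GC content of 48.8% (39.6% to 59.5%), and the 8 lower ones 60.8% (51.5% to 66.4%). The matrix transcripts had a median GC content of 55.2% and length of 5792 bases, against 47.5% and 2981 bases for all genes. Once each sample was corrected for its trend on these properties, 10 of the 29 passed an adjusted p of 0.05, 5 higher and 5 lower, beside 938 of all genes, or 8.24%. TNC (0.72), LOX (0.53), LAMA3 (0.79), COL6A1 (−0.59) and FBLN1 (−1.58) kept their direction and passed there. The 5 further genes were LAMB3 (0.43, adjusted p = 0.0308), COL4A5 (0.47, 0.0401), COL4A2 (−0.28, 0.0236), COL5A1 (−0.55, 0.0215) and COL6A2 (−0.25, 0.0497). The part of GC content in the uncorrected differences was not tested.

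**Figure D5:**
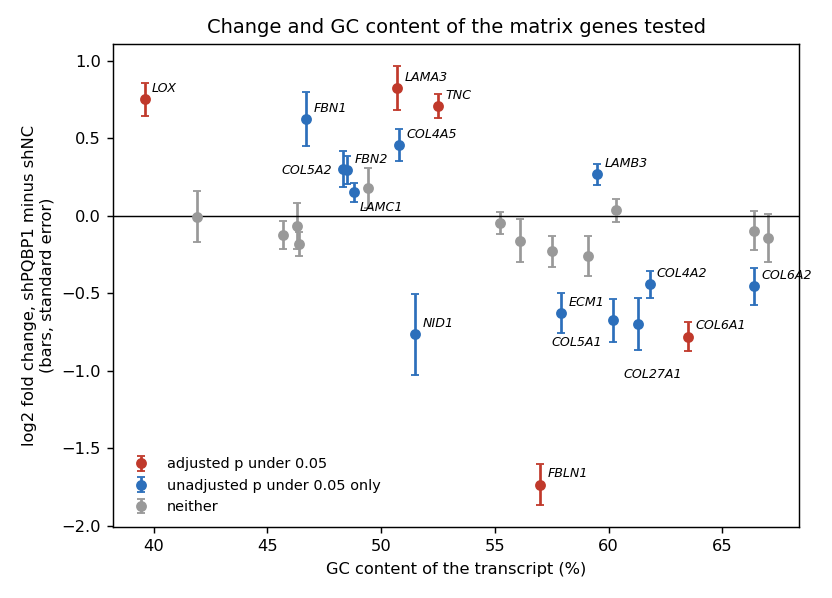
Log2 fold change (shPQBP1 minus shNC, with standard error) against the GC content of the transcript for the 29 tested matrix genes, coloured by whether they passed the adjusted (red) or only the unadjusted (blue) threshold. The red and blue genes above 0 lie at 39.6% to 59.5% GC and those below 0 at 51.5% to 66.4%, with grey genes on both sides.

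With 3 samples a group, leaving out 1 sample moved the fold changes of the called genes little and their adjusted p more. Of all genes tested 2.91% passed with every sample, 4.07% without shNC 1 and 0.263% to 0.815% without any other sample. FBLN1 passed in all 6 fits that left 1 sample out (adjusted p 0.0127 to 0.037, log2 fold change −1.79 to −1.69). TNC and COL6A1 each passed in 1 of the 6, the fit without shNC 1, with adjusted p of 0.0532 to 0.0889 and 0.0532 to 0.0998 in the other 5. LOX passed without shNC 1 or shNC 2 and had 0.0956 to 0.12 without any of the other 4, and LAMA3 passed in none (0.0508 to 0.158). The log2 fold changes stayed between 0.65 and 0.75 for TNC, −0.83 and −0.71 for COL6A1, 0.65 and 0.83 for LOX and 0.75 and 0.91 for LAMA3.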

How the data were processed

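Poly(A) RNA of 6 HEY samples was sequenced as paired ends. The authors aligned reads to hg38 with HISAT2 2.2.0 and SAMtools 1.9, assembled and quantified transcripts with StringTie 1.3.0 and deposited FPKM values per gene, rounded to 2 decimals. The annotation release and the strand setting are not given in the sources used here. Columns of the authors' own comparison (fold changes, p-values and calls, made with edgeR per the labels) were not used.

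Genes were tested with limma 3.58.1 in R 4.3.3 (moderated test with a trend of the variance on the mean, two-sided, Benjamini-Hochberg over all genes tested) on log2(FPKM + 0.1), without a block, where the mean FPKM was at least 1. The fit was tested on simulated data. Ratios within samples were compared with the exact permutation test. Positions, exons, transcript length and GC content came from GENCODE 44, start regions from RefSeq (GRCh38.p14). Whether the replicate numbers pair the samples is not labelled. Deviations from the group means of same-numbered samples correlated at −0.186, −0.138 and −0.011 over the genes tested. A correlation over all these genes cannot decide whether some of them share a pairing. The alternatives were median-of-ratios and quantile scaling, pseudocounts of 1 and 0.01, other filters, no trend, a replicate block, removal of the GC and length trend (splines with 5 degrees of freedom each) and leaving out each sample.

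Genes were named by rule: those at an unadjusted p under 0.05, the 12 highest, the highest of each family, chains of the same collagen type or laminin trimer, and of other lists the genes passing the adjusted threshold and the 3 highest. Of the processing and receptor lists, the genes at an unadjusted p under 0.05 and ITGB4 were named in addition. The genes and lists were chosen with earlier results of these data known, and 1 gene of the set is not reported here. FPKM totals ran from 278286 to 318484 per sample, and depth is unknown.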

Additional observations from a re-analysis of the deposited data

How the results depend on the processing

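Of the 5 matrix genes past an adjusted p of 0.05, all 5 kept their direction under every alternative. The count of 5 became 10 with the GC and length trend removed, 3 at a mean of at least 10 FPKM, where the others were not tested, and 1 to 4 with a sample left out. Of all genes tested 2.91% passed, which became 0.619% with every gene above 0, 5.76% at a mean of at least 10 FPKM, 8.24% with GC and length removed and 0.263% to 4.07% with a sample left out. At an unadjusted p the 17 matrix genes became 31 with every gene above 0 and 9 at a mean of at least 10, and the 1 with a fold over 2 became 4 and 0, and 1 to 2 with a sample left out. Collagen processing genes numbered 3 with GC and length removed. Receptors numbered 2 there, 1 at a mean of at least 10, 1 with a pseudocount of 1 and 0 to 1 with a sample left out. The median log2 fold change of −0.098 was −0.151 after quantile normalization, 0 over 78 genes, 0.149 over the 13 at a mean of at least 10, −0.055 with GC and length removed and −0.113 to −0.043 with a sample left out. Small differences turned: COL4A1 (0.033), LOXL1 (0.088) and LAMA5 (0.014) with GC and length removed, LAMB2 (−0.005 to 0.06), COL12A1 (0.023 and 0.008, −0.225 at the other end) and EFEMP1 (0.072 and 0.102, −0.09 at the other end) with a sample left out. The causes were not tested.

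The replicate number as a block, which is not known to pair these samples, left 0% of the genes tested and 0 matrix genes at an adjusted p under 0.05 (limma). With the GC and length trend removed as well it left 0.184% and 0. PQBP1 was then −2.04 (adjusted p = 0.0686) and −1.86 (0.0543), and COL4A1, LOXL1, LAMA5 and the median were as without the block. Depth is unknown, so the counting error of values near 0.01 FPKM, the last digit deposited, cannot be given here.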
